A study of Mus musculus with 20 samples.

Results

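The samples described here are the unstimulated cultures of mouse dorsal root ganglion (DRG) neurons, 4 of the 20 samples of a series on patterned electrical activity. They were chosen by their titles, X1 to X4, and are called replicates 1 to 4. The series holds 5 conditions, and the others received bursts of action potentials from electrodes for hours. No stimulated sample entered any value. The neurons came from NIH Swiss embryos of embryonic day 13.5 and were grown with nerve growth factor at 100 ng/ml in a medium that held 5% horse serum. Dividing cells were held back with 13 μg/ml fluorodeoxyuridine for 5 days, and the cultures were used after 3 to 4 weeks. Cultures were pooled for each condition, and the sources do not say whether each sample was its own pool. The authors speak of biological replicas and of replicate experiments, and the labels do not say how the cultures behind them were kept apart, so p-values here measure only the spread between these samples. The cell type is labelled as DRG neurons while the culture protocol names spinal cords as the source, and markers of both tissues are therefore given.

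The DRG holds the cell bodies of the sensory neurons that serve skin, muscle and viscera. Nociceptors, which sense painful stimuli, depend on nerve growth factor in the embryo, and later split into peptidergic cells with substance P and CGRP and non-peptidergic cells with Ret and P2rx3. Mechanoreceptors and proprioceptors carry Ntrk2 or Ntrk3. Satellite glia surround each cell body, Schwann cells follow the axons, and fibroblasts and vessels fill the connective tissue.

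RNA was read on 2 Agilent arrays of the same slide, each with 2 colours, with 60-base probes. Replicates 1 and 2 were labelled with Cy3 and Cy5 on array 1, and replicates 3 and 4 with Cy3 and Cy5 on array 2. Of the 43020 spots that are not controls, the scanner software marked 28940, 28500, 29807 and 28376 as well above background in replicates 1 to 4. The median signal was 2.39, 2.45, 2.59 and 2.27 times the local background. The number of arrays limits the precision of every value. A gene is called detected in a sample where at least 1 of its probes carries the mark in that sample. The saturation mark was set for 403 and 395 spots of replicates 2 and 4 and for 0 spots of both Cy3 samples, although Cy3 signals also reached the recording ceiling, so spots at or above 60000 are called saturated too. By that rule 337, 446, 473 and 448 spots were saturated, and their values are lower bounds.

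Of 31709 gene names on the array, 19823 (62.52%) were detected in all 4 samples, 2762 in 1 to 3 samples and 9124 (28.77%) in 0 samples. For the 20125 protein coding genes with a probe these counts were 14533 (72.21%), 1448 and 4144. Replicate 3 had the most names detected, 21792, against 21171, 20884 and 20791 in replicates 1, 2 and 4. Odorant receptor genes, which serve the nasal epithelium, give a measure of how lenient the mark is. They were detected in all 4 samples in 171 of 1061 cases, and vomeronasal receptor genes in 42 of 248. A stricter rule asks for a signal of 2 times the local background, and 55 and 12 of these genes met it in every sample. By that rule 15869 names were detected in all 4 samples and 13869 in 0. Between 1 and 3 of the 153 negative control spots carried the mark in each sample, and 0 of them reached 2 times the background. Ribosomal proteins, needed in every cell, were detected in all 4 samples in 80 of 82 cases.

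**Figure D1:**
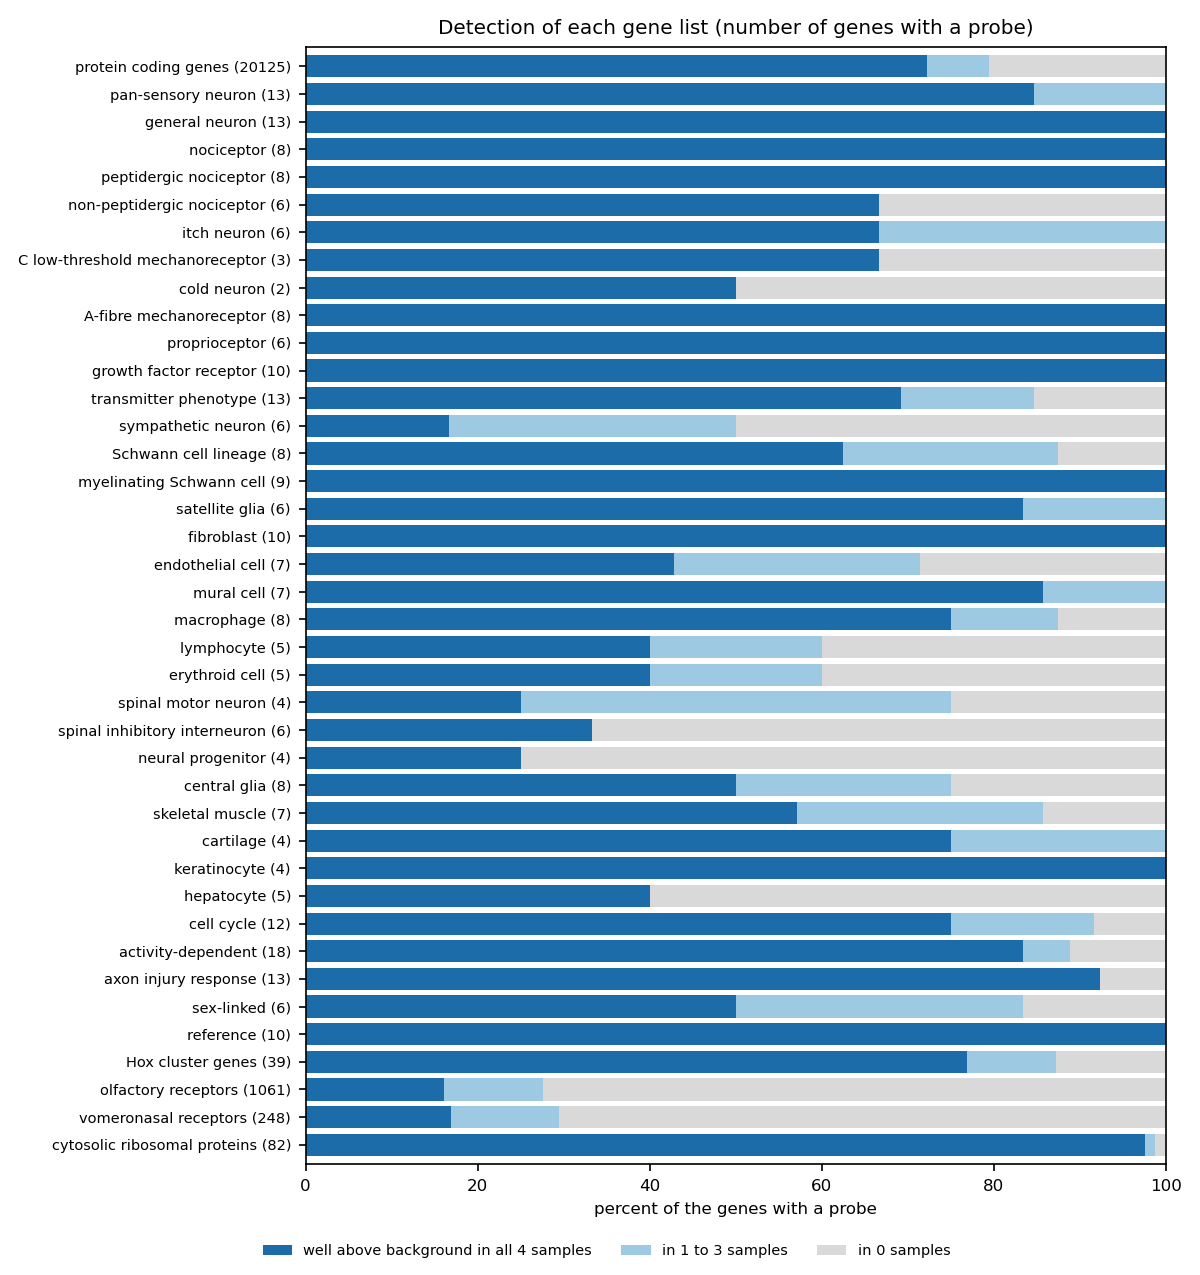
Percent of the genes of each list that were well above background in all 4 unstimulated samples, in 1 to 3 or in 0, with the number of genes that have a probe in parentheses. The general neuron, nociceptor, proprioceptor, fibroblast and keratinocyte lists are among those filled to 100%, against 84.62% of pan-sensory genes, 72.21% of protein coding genes and 16.12% of odorant receptors.

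The neuronal markers were detected throughout. All 13 general neuron markers were detected in all 4 samples, among them Tubb3 and Map2 of the cytoskeleton and the RNA-binding proteins Elavl3 and Rbfox3. Of the 13 pan-sensory markers, 11 were detected in all 4 samples and the other 2 in only 2 samples. Pou4f1, a homeodomain factor that defines sensory ganglia, read 14.66, 14.79, 14.68 and 14.56 on the log2 scale of normalized intensity in replicates 1 to 4. Isl1, its partner in early sensory neurons, read 11.64, 12.04, 12.15 and 11.71. Avil, an actin regulator used as a DRG marker, read 13.55, 13.34, 12.84 and 13.05. Prph, the intermediate filament peripherin of peripheral neurons, was saturated in all 4 samples, as were Nefl, Stmn2 and Gap43. The members missing from some samples were Pou4f3 and Prrxl1, also called Drgx, each detected in 2 samples and near background, at 6.35 to 6.53 for Prrxl1. Levels of different probes are not compared, since probes differ in how brightly they bind.

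Nociceptor markers were detected in 8 of 8 cases. Scn10a, the sodium channel Nav1.8 of nociceptors, read 15.37 and 15.33 on array 1 and 14.58 and 14.59 on array 2, and that split was not called (array 2 minus array 1 of -0.76). Prdm12, a chromatin regulator needed to form nociceptors, read 14.23, 14.03, 14.05 and 13.76, and Scn11a, a second nociceptor sodium channel, read 11.33, 11.62, 11.61 and 11.68. The heat receptor Trpv1 read 8.63, 8.17, 8.51 and 8.76. The irritant receptor Trpa1 was at 7.57, 7.30, 7.09 and 8.45, highest in replicate 4.

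The peptidergic list was also complete, with 8 of 8 members detected in all 4 samples. Tac1, which encodes substance P, read 13.55 and 13.79 on array 1 and 14.61 and 14.57 on array 2, while Calcb, a CGRP gene, read 12.54, 11.25, 11.58 and 12.04. The median SD of the list over the 4 samples was 0.47, against 0.16 for all genes fitted. Calca, which yields calcitonin or CGRP by choice of the last exons, has 2 probes on the minus strand of mm9 whose first 30 of 60 bases are shown, because they gave opposite readings for 2 transcript records.
Calca NM_001033954, chr7:121775204-121775263: tattgtgcatcgtgttgtatgtgactctgt
Calca NM_007587, chr7:121776948-121777007: aagaatggtatctgaaatccccagtgggtg
The probe for NM_001033954 was saturated in all 4 samples. The probe for NM_007587 carried the well above background mark in 4 samples but reached 2 times the background in 0.

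Markers of the other nociceptors were split. Ret, the receptor for GDNF family ligands, read 10.73, 11.34, 10.59 and 11.08, and P2rx3, an ATP-gated channel, read 12.25, 11.76, 12.20 and 11.21 on its brightest probe. Mrgprd and Lpar3, which mark mature non-peptidergic cells, were detected in 0 samples, and Gfra2, a GDNF family co-receptor, was detected in 4 but stayed near background, at 6.57 to 6.86. Among 6 itch neuron genes, 4 were detected in all 4 samples and 2 were also at least 2 times background: Mrgpra3, an itch receptor, read 8.18, 8.78, 8.17 and 7.87, and Osmr, the oncostatin M receptor, read 8.44, 8.55, 8.19 and 9.55. Nppb was detected in 2 samples and Cysltr2 in 1. Tafa4, of C low-threshold mechanoreceptors, and Foxp2, listed for cold neurons, were detected in 0 samples. Th, the first enzyme of catecholamine synthesis and a marker of the same mechanoreceptors, read 9.15, 9.43, 8.97 and 9.27. The cold channel Trpm8 read 7.66, 7.38, 7.37 and 7.64.

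Large sensory neurons were represented as well. All 8 A-fibre mechanoreceptor genes and all 6 proprioceptor genes were detected in all 4 samples, and 7 and 6 of them by the stricter rule. Calb1 of the A-fibre list read 6.63 to 6.84 and reached 2 times the background in 1 sample. Its other probe was detected in 0 samples. Nefh, the heavy neurofilament of large axons, was saturated in all 4. Mafa, a transcription factor of touch neurons, read 11.05, 11.46, 10.98 and 11.26. Ntrk3, the neurotrophin-3 receptor, read 11.38, 11.71, 11.92 and 11.50, and the calcium buffer Pvalb read 12.79, 13.49, 12.69 and 13.20. Runx3, which directs proprioceptor fate, sat just above the filter at 6.97, 7.16, 6.95 and 7.19 on a probe detected in 4 samples, while its other probe was detected in 0. Markers of subtypes can share a cell, and bulk RNA does not tell which cells held them.

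**Figure D2:**
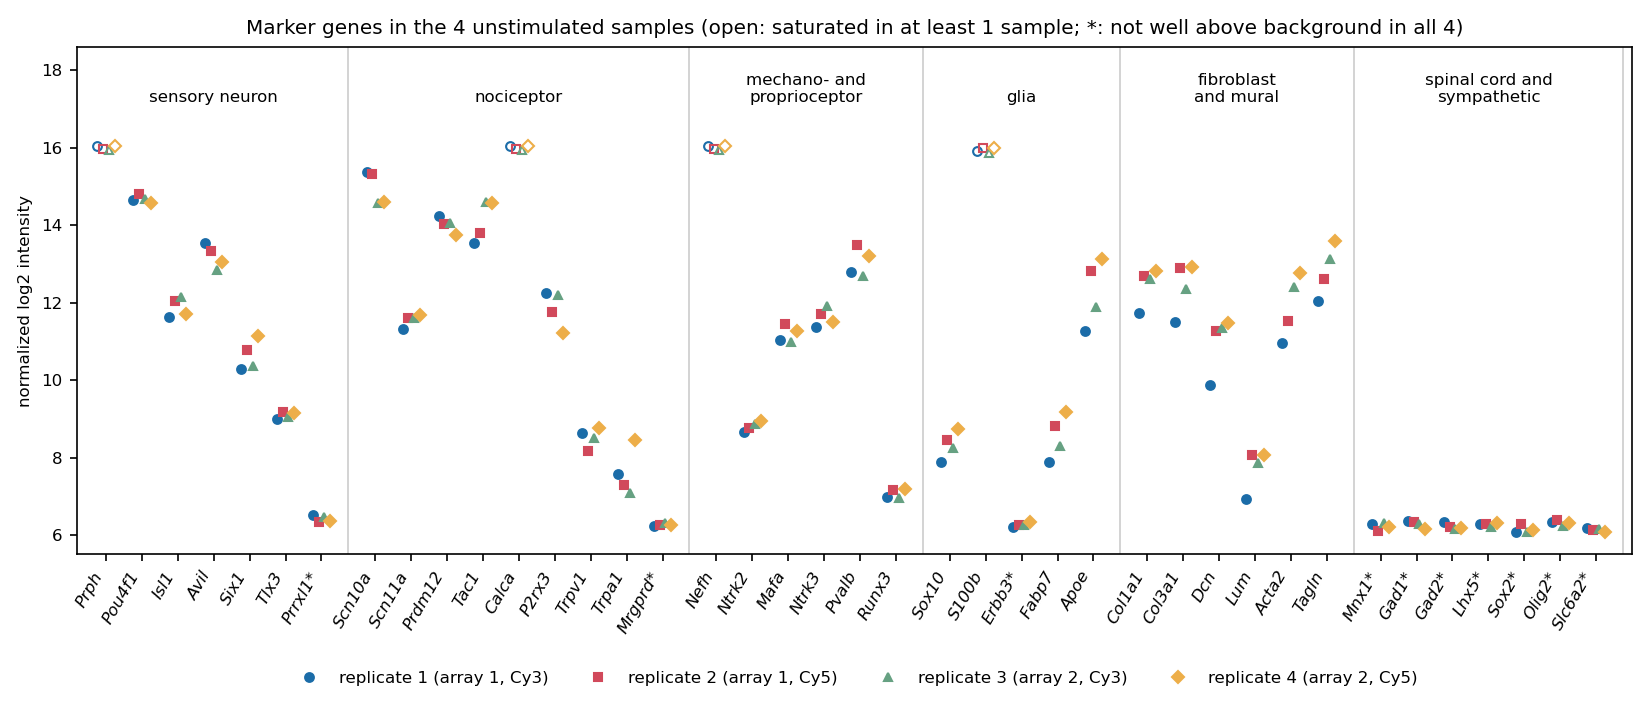
Normalized log2 intensity of marker genes in each of the 4 unstimulated samples, on the brightest probe of each gene, where an open symbol means that the gene was saturated in at least 1 sample and a star that it was not well above background in all 4. The 7 spinal cord and sympathetic genes, shown as undetected members of their lists, stay between 6.07 and 6.40, and heights are not to be compared between genes.

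Many markers of spinal cord neurons were not well above background. Mnx1 of motor neurons, the GABA-synthesis enzymes Gad1 and Gad2, the interneuron factors Lhx5 and En1 and the progenitor factors Sox2, Pax6 and Olig2 were each detected in 0 samples. Mnx1, for example, read 6.28, 6.10, 6.31 and 6.20. Of 4 motor neuron genes 1 was detected in all 4 samples, Slc5a7, the choline transporter, and of 6 inhibitory interneuron genes 2, Pax2 and Slc32a1. Of 4 progenitor genes only Nkx6-1 was detected in all 4. Slc32a1 and Nkx6-1 also passed the stricter rule, as did Slc18a3, the acetylcholine transporter of synaptic vesicles, at 7.35, 7.59, 7.47 and 7.78. Slc17a6, the vesicular glutamate transporter of sensory neurons, read 13.65, 13.70, 13.42 and 13.41. The sympathetic list was low as well: Slc6a2 and Gata3 were detected in 0 samples, and of 6 genes only Dbh was detected in all 4, at 6.46 to 6.57. The catecholamine enzyme Th, given above and not on that list, passed the stricter rule in all 4 samples. Slc6a5 and Hbb-b1 have no probe here.

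Homeobox genes of the Hox clusters, which are used in order along the body axis, were detected in all 4 samples in 30 of 39 cases. The 5 detected in 0 samples were Hoxb1, from the head end, and Hoxa13, Hoxb13, Hoxd12 and Hoxd13 from the tail end of their clusters. Hoxa7 read 11.19, 11.39, 11.23 and 11.25, and Hoxb7 read 11.60, 11.44, 11.58 and 11.62. Hoxb8 read 8.84, 8.96 and 8.83 in replicates 1 to 3 and 10.93 in replicate 4.

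Glial genes were present but uneven. All 9 genes of myelinating Schwann cells were detected in all 4 samples, 7 of them by the stricter rule. Of 8 Schwann cell lineage genes 5 were detected in all 4 samples, and Erbb3, the neuregulin receptor that Schwann cells need, was detected in 0. Sox10, the lineage's transcription factor, read 7.89, 8.46, 8.25 and 8.75. S100b, a calcium-binding protein of glia and of some sensory neurons, was saturated in 3 samples. Mbp, a myelin gene that also gives non-myelin transcripts in neurons, read 11.79, 11.79, 11.61 and 11.83 on 1 probe, reached 2 times the background in 0 samples on a second and was detected in 0 samples on the third. Of 6 satellite glia genes 5 were detected in all 4, 3 of them by the stricter rule. Apoe, a lipid carrier made by glia, read 11.27, 12.82, 11.89 and 13.13, and Fabp7, a fatty acid carrier of immature glia, read 7.89, 8.82, 8.30 and 9.18. Both were lowest in replicate 1 and highest in replicate 4. Fewer cells of a type and less RNA per cell cannot be told apart in bulk samples.

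All 10 fibroblast markers were detected in all 4 samples. The collagen gene Col1a1 read 11.74, 12.70, 12.62 and 12.81, Col3a1 read 11.51, 12.89, 12.36 and 12.92, and Dcn, which encodes the matrix proteoglycan decorin, read 9.88, 11.26, 11.35 and 11.46. Of the 7 fibroblast genes that passed the spot filter, 7 were lowest in replicate 1 and 6 highest in replicate 4. The same held for 5 of 5 and 5 of 5 mural cell genes, which mark the contractile cells of vessels and are shared with activated fibroblasts. Of genes never saturated, 3 of 3 in the satellite glia list and 2 of 2 in the Schwann cell lineage list were lowest in replicate 1. Within each array these lists were also higher in the Cy5 sample, with a median Cy5 minus Cy3 of 0.68 for fibroblast, 0.52 for mural cell and 0.90 for satellite glia genes. Some other lists were higher in Cy5 as well, with a median of 0.42 for activity-induced genes and 0.16 for odorant receptors. Others had lower medians, at -0.10 for peptidergic, -0.02 for nociceptor and 0.001 for pan-sensory genes. Array 2 minus array 1 had a median of 0.49 for fibroblast, 0.93 for mural cell and 0.39 for satellite glia genes. The part of the dye in the order of the samples was not tested. Among all genes that were never saturated 25.27% were lowest in replicate 1 and 24.95% highest in replicate 4. Summed over fibroblast members, the log2 signal was 13.54, 14.70, 14.43 and 14.84. Over genes never saturated the median SD was 0.55 for fibroblast, 0.66 for mural cell and 0.57 for satellite glia genes, 0.52 for peptidergic genes, 0.46 for Schwann cell lineage genes, 0.23 for pan-sensory genes and 0.11 for myelinating Schwann cell genes.

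**Figure D3:**
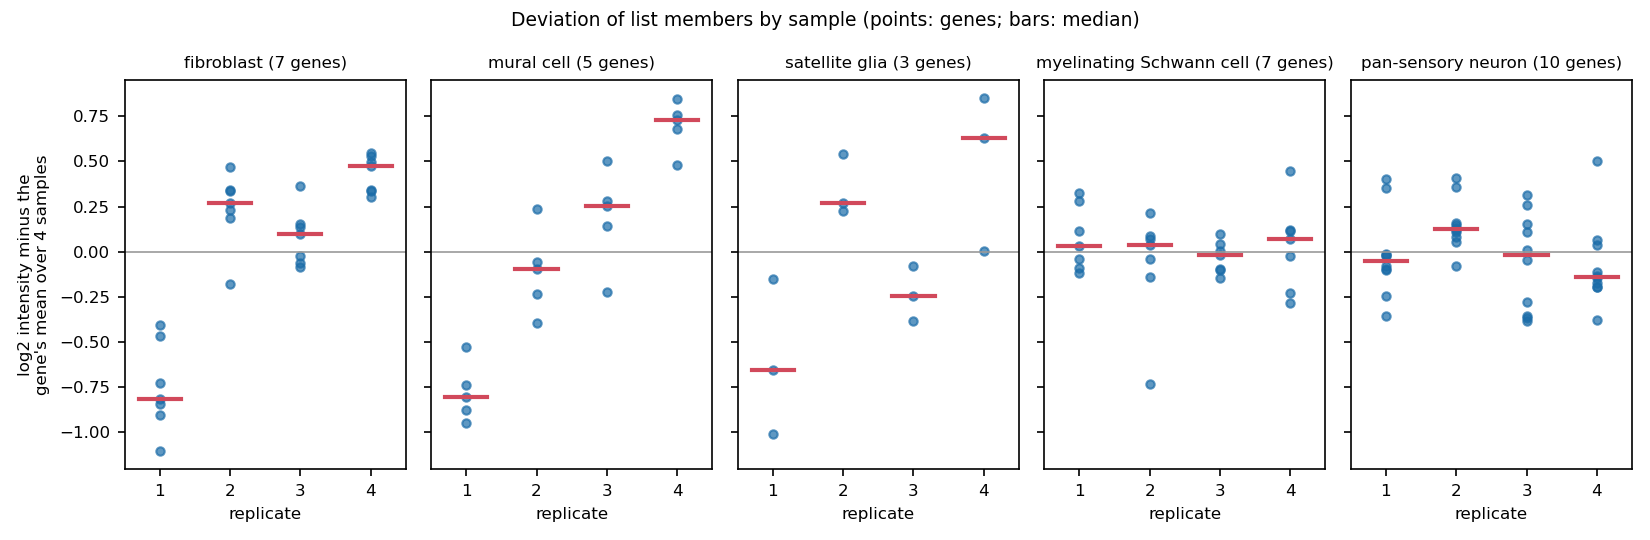
Deviation of each gene from its own mean over the 4 unstimulated samples on the log2 scale, for the members of 5 lists that passed the spot filter and were never saturated, with red bars at the median of the list. Fibroblast, mural cell and satellite glia genes have medians of -0.81, -0.80 and -0.66 in replicate 1, and the pan-sensory genes have a median of -0.05 there.

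Lists of other cell types were detected in part. Of 8 macrophage genes 6 were detected in all 4 samples, 4 of them by the stricter rule. Csf1r, the receptor that macrophages live on, read 8.52, 8.62, 8.42 and 8.68, and Cx3cr1 was in 0. Cd68 and Ptprc carried the mark in 4 samples but reached 2 times the background in 2 and 0. Of 7 endothelial genes 3 were detected in all 4, with Pecam1 at 7.45, 7.67, 7.43 and 7.67 and Cldn5 and Tek in 0. With replicate 1 left out that count was 5. Kdr, a receptor of endothelial cells for vascular growth factors, read 10.59, 10.98, 10.38 and 10.90 on 1 probe, and its other probe reached 2 times the background in 0 samples. Of 5 lymphocyte genes 2 were detected in all 4, 1 of them by the stricter rule, and the defining B cell gene Ms4a1 was in 0. Of 5 red cell genes 2 were detected in all 4, 1 of them by the stricter rule, with the globin gene Hba-a1 at 10.04, 10.58, 10.13 and 9.61. Of 5 liver genes 2 carried the mark in all 4 samples and 0 passed the stricter rule in all 4, while Alb, Apoa1 and Afp were in 0, and the muscle enzyme Ckm was too. Of 4 keratinocyte genes 4, of 4 cartilage genes 3, of 7 skeletal muscle genes 4 and of 8 central glia genes 4 carried the mark in all 4 samples, but under the stricter rule these counts were 3, 0, 1 and 2. Of 12 cell cycle genes 9 were detected in all 4 samples and 6 passed the stricter rule. In that list Birc5, which serves chromosome separation, read 10.73, 10.57, 10.16 and 10.50 on its brightest probe, Mki67 of dividing cells read 6.78 to 6.94, and Aurkb was in 0 samples.

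Genes that neuronal activity induces were detected in part without stimulation. Of 18 such genes 15 were detected in all 4 samples and 8 (44.44%) passed the stricter rule, against 50.05% of all names. Arc read 9.27, 10.02, 9.27 and 9.63, the neurotrophin Bdnf read 10.12, 10.16, 9.83 and 10.19, and Fos stayed near background at 6.66, 6.74, 6.59 and 6.69. Egr3 and Nr4a3 were detected in 0 samples. Genes linked to axon injury and regrowth were detected in 12 of 13 cases (92.31%), against 62.52% of all names. By the stricter rule 11 passed (84.62%). Sprr1a did not, at 6.49 to 7.26, and reached 2 times the background in 1 sample. Atf3, a transcription factor induced by axotomy, read 13.41, 12.70, 11.91 and 12.61, and the neuropeptide Gal read 11.60, 11.30, 11.66 and 11.52, while the neuropeptide Vip was in 0 samples. Of the sex-linked genes, Ddx3y and Eif2s3y of the Y chromosome were detected in all 4 samples, and Xist, the RNA of the inactive X, carried the mark in 3 samples and reached 2 times the background in 0.

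The 20 names with the highest mean were saturated in all 4 samples, so they have no order among themselves and none above the other saturated names. They included Aldoa and Gapdh of glycolysis, Sncg, a synuclein of sensory neurons, the light neurofilament Nefl, Stmn3 of the neuronal cytoskeleton, Anxa2, Myl6, the chaperone Hsp90ab1 and the ribosomal genes Rpl10 and Rps14. Of the names fitted, 438 had a saturated spot in at least 1 sample and 256 in all 4. F10, a clotting factor of the liver, was also among the 20 by 1 probe, while its other probe was detected in 0 samples. Such splits were common: of 6400 genes with 2 or more probes, 1207 (18.9%) had 1 probe detected in all 4 samples and another in 0.

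Some bright probes share runs of bases with probes of other genes. A run of 16 bases shared with at least 5 other genes, or at least 8 dinucleotide repeats in a row, was found in 1215 of 39429 probes (3.08%), a rule chosen after the data were seen. Of these 97 (7.98%) were saturated in all 4 samples, against 188 (0.492%) of the rest. The 126 probes with at least 8 dinucleotide repeats were detected in all 4 samples in 125 cases and had a median log2 intensity of 12.33, against 6.97 for the other probes. Such probes stand for several marker genes, and among the 20 brightest names for F10, Stmn3, Medag, Gm13464, Gm2451, Gm5863, LOC436420, LOC675602 and NAP062956-1. For some of these genes 30 bases each are shown with a shared run in capitals, and the last is the bright F10 probe.
Oprm1, chr10:3308332-3308391: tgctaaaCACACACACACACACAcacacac
Snap25, chr2:136607709-136607768: CACACACACACACACAcacaaagtggattt
Itgam, chr7:135261755-135261814: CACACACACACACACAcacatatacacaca
F10, chr8:13056119-13056178: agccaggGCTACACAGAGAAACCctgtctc
The Oprm1 probe lies on the minus strand and the others on the plus strand of mm9. For Oprm1, the opioid receptor of nociceptors, the probe shown read 12.94, 13.48, 13.10 and 13.35, while its other probe carried the mark in 4 samples but reached 2 times the background in 0. Itgam, a macrophage integrin, read 13.39, 14.01, 13.57 and 13.82 on the probe shown, and its other probes read 6.70 to 6.90 and 7.14 to 7.19. Snap25, a synaptic protein, has only the probe shown. The brightest probe held such a run for 9 list members, of which 6 had another probe without one and 5 had such a probe detected in all 4 samples. P2rx3 was among those 5, while Trp63, of keratinocytes, was detected in 0 samples on its other probe.

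The 4 samples resembled each other closely. Across 15873 genes that passed the spot filter in all 4, which are not independent replicates, Pearson's r lay between 0.987 (replicates 1 and 4) and 0.994 (replicates 2 and 4). The SD over the 4 samples had a median of 0.16 on the log2 scale, with 5% of genes under 0.05 and 5% over 0.44, and 10 genes were over 1. For 224 probes printed 10 times the median SD between samples was 0.16. It was 0.24 between single spots of 1 sample, from which 0.08 is expected for a mean of 10 spots.

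The genes with the largest SD, among those never saturated, were led by Angptl4, a secreted inhibitor of lipoprotein lipase induced by fasting and hypoxia, at 7.17, 8.61, 7.97 and 10.67. Hmox1, the stress-induced enzyme that breaks down heme, followed at 13.03, 12.01, 11.31 and 9.62 (SD 1.44). Timp1, an inhibitor of matrix proteases, read 9.11, 10.02, 10.06 and 12.19. Among these 3, Hmox1 was lowest in replicate 4 and the others were highest there. Mgp, a matrix protein that restrains calcification, read 10.66, 11.15, 11.25 and 13.20, Fbln2 of the matrix 10.43, 11.37, 11.11 and 12.81, and the growth factor Fgf1 13.16, 13.51, 13.31 and 15.33. The neuropeptide genes Cck at 7.28, 8.85, 7.67 and 9.51 and Penk at 7.29, 7.81, 7.24 and 9.19, were also highest in replicate 4. The others of the 20 were Crct1, Rpl26-ps2, Hoxb8, Trim59, Mgarp, Cyp2s1, Rnase4, Ctsh, Ifi202b, Ccnd1, Ccl19 and Serpina3h. When replicate 4 was left out, only 3 of these 20 were still among the 20 with the largest SD, against 14, 15 and 16 without replicates 1, 2 and 3. The 10 genes with the smallest SD included the Wnt pathway inhibitor Ctnnbip1, at 11.74, 11.74, 11.74 and 11.73, Ift74 of the cilium and the histone methyltransferase Nsd2.

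**Figure D4:**
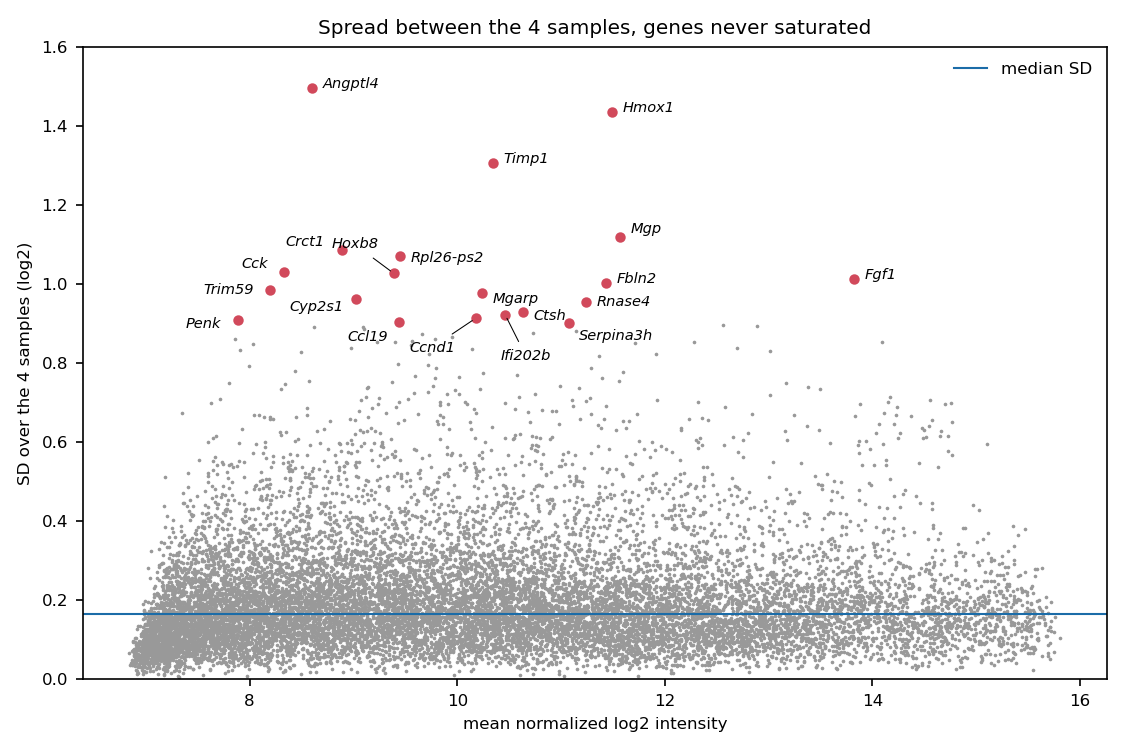
SD over the 4 unstimulated samples against the mean normalized log2 intensity of each gene that passed the spot filter and was never saturated, with the 20 largest in red and the median as a blue line. Angptl4 stands highest, followed by Hmox1 at 1.44 and Timp1 at 1.31.

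The arrays and the colours were compared in 1 fit, where an array difference also holds the samples that lay on the array and a colour difference the samples that carried the dye, so that sample, array and dye cannot be told apart. By limma with Benjamini-Hochberg adjustment, 7 of 15873 genes (0.0441%) were called between the arrays, 4 higher and 3 lower on array 2, and 1647 had an unadjusted p under 0.05. Of 35 marker lists, 2 had a called member. Acta2, the smooth muscle actin of mural cells and myofibroblasts, rose from 10.96 and 11.52 on array 1 to 12.42 and 12.76 on array 2 (difference 1.35, SE 0.13, limma adjusted p = 0.0435). Its relative Actg2 read 7.69 and 8.02 against 9.37 and 9.40 (limma adjusted p = 0.0375), and Spp1, which encodes osteopontin and marks proprioceptors, 8.98 and 9.48 against 10.64 and 10.72 (limma adjusted p = 0.0495). Crct1 was the other gene higher on array 2. The 6 fitted proprioceptor genes, Spp1 among them, had a median difference of only 0.006. The 5 fitted mural cell genes, Acta2 among them, were all higher on array 2 on average, as were 5 of 11 fitted pan-sensory genes. The median differences were 0.93 and -0.04. The share of all genes higher on array 2 was not counted.

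Hmox1 was lower on array 2, with a difference of -2.06 (SE 0.18, limma adjusted p = 0.0375). Its probe at chr8:77624207-77624266 gave that value, and its dimmer probe at chr8:77620797-77620856 gave -0.78. Without any 1 sample the colour term was dropped as well, and 1 array held a single sample. In those fits the difference of Hmox1 ranged from -2.90 to -1.21, and that of Crct1 from 0.85 to 2.14. Trim59, an E3 ubiquitin ligase, read 9.14 and 8.95 against 7.43 and 7.27 (limma adjusted p = 0.0375). Its 2 probes, of which the first 30 bases are shown because they disagree, lie on the minus strand.
Trim59, called, chr3:68839402-68839461: gctcattctattctgcttataaacaacttg
Trim59, other, chr3:68839250-68839309: gccaggaggctgagtttgtacaacttaaaa
The called probe gave a difference of -1.70 and the other gave 0.12. The mitochondrial ribosomal gene Mrpl21 was the other gene called lower. By limma the count of 7 fell to 0 when saturated probes were left out (1543 at an unadjusted p under 0.05) and under quantile normalization. Under quantile normalization the differences of Actg2 and Trim59 were 1.53 and -1.70, close to the values above, although 0 genes were called.

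Between the colours 374 of 15873 genes (2.36%) were called by limma, 312 higher and 62 lower in Cy5, and 2852 had an unadjusted p under 0.05. The named genes higher in Cy5 were Angptl4, Cck, Ifi202b, Timp1 and an unnamed transcript, probe A_55_P2064171, and those lower were Cyp2s1, Mgarp, Ndrg1, Rasgrp2 and Hmox1. Ndrg1, a stress-responsive gene that is also used by Schwann cells, read 12.43 and 12.47 in Cy3 and 10.95 and 10.99 in Cy5 (difference -1.47, limma adjusted p = 0.0189). Among 141 fitted members of the marker lists 5 (3.55%) were called, all higher in Cy5 like most called genes, among them Apoe and Fabp7 of satellite glia, Pdgfrb of mural cells and Egr1 of the activity-induced genes. Apoe had a difference of 1.39 (limma adjusted p = 0.0189) and Egr1 of 0.69 (limma adjusted p = 0.0440). Of the 312 genes higher in Cy5, 134 (42.9%) were read by a probe with a shared run, against 762 of all 15873 genes tested and 1 of the 62 lower. The part of those runs in the colour difference was not tested. With such probes left out, a choice made after the data were seen, 0 genes were called, the lowest adjusted p in limma was 0.0542 and 2528 genes had an unadjusted p under 0.05. Under quantile normalization or median centring 0 genes were called as well, so the number of genes called depends on these settings. Most of the 374 genes hold no shared run. Under quantile normalization the differences of Angptl4, Cck and Ndrg1, at 2.07, 1.70 and -1.47 before, were nearly the same.

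**Figure D5:**
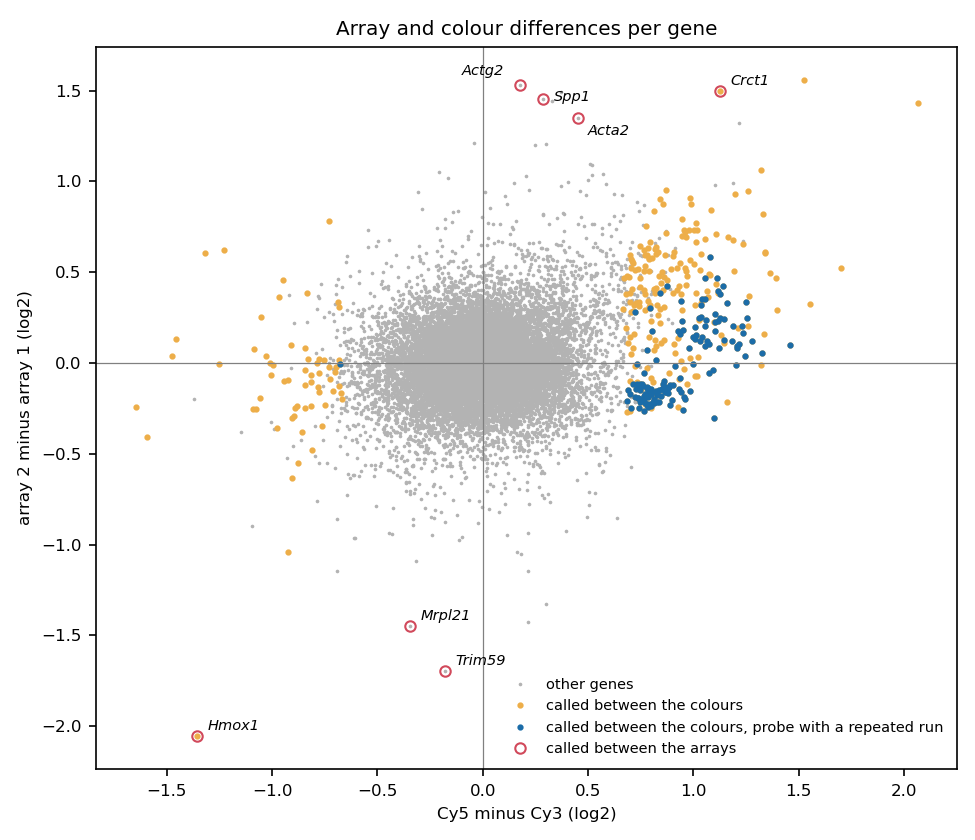
Difference of each gene between array 2 and array 1 against its difference between Cy5 and Cy3, both on the log2 scale, with genes called at a limma adjusted p under 0.05 in colour. Of the called genes with a shared run 134 lie at the right, in Cy5, and 1 at the left, and the 7 genes called between the arrays are named.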

How the data were processed

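Of what the authors deposited, the raw spot intensities were used, means for the signal and medians for the surrounding background, which the scanner software had read from the images without normalization. The file headers give its version as 10.7.1.1, which is not the version that the methods name, and mm9 as the genome of the probe positions. For each array 72 further columns of sample values were not used. Control spots were left out. Intensities were background corrected (normexp, offset 50), loess normalized within arrays and quantile normalized on their mean. A gene was fitted if its spots reached 2 times the background and were not non-uniform in all 4 samples; repeated spots were averaged and the probe with the highest mean stood for the gene. The limma fit had terms for array and colour, with 1 residual degree of freedom. Probe names were matched to GRCm38.p6 for 30180 of 39429 probes. Named genes are the members of marker lists, the 20 brightest, the 20 with the largest and the 10 with the smallest SD, and up to 5 called genes per direction with the largest differences. Members and lists were chosen with earlier results of these data known. Alternatives varied background correction, normalization, filters, probes, model terms and samples. Leaving out probes with a shared run, leaving out probes marked as saturated, and using the mark alone were chosen after seeing the data. The code was checked on simulated data. R 4.3.3, limma 3.58.1, data.table (version 1.17.8), Python 3.11.15, numpy 2.4.6, pandas 2.3.3 and matplotlib 3.10.9 were used. A few marker genes are not reported here because they are withheld.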

Additional observations from a re-analysis of the deposited data

Results flagged for a closer look

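Some genes had 1 of the 4 samples far from the other 3, relative to the range of the gene. The measure is Dixon's ratio, the gap to the nearest sample over the full range, and ratios above the critical value for 4 samples are listed, a limit that chance passes in about 1 of 20 genes. It was passed by 10 of 183 named or listed genes (5.46%) and by 746 of 15435 genes in all (4.83%). Replicate 1 was low for Rgs2 (0.967), Dcn (0.868) and Krt10 (0.857). Replicate 3 was low for Dusp1 (0.879) and Hprt (0.859) and high for Pou4f2 (0.879) and Kit (0.867). Replicate 4 was high for Hoxb8 (0.939) and Fgf1 (0.838), and replicate 2 was high for Mag (0.835). The gaps behind these ratios ran from 0.11 for Mag to 1.97 for Hoxb8 on the log2 scale.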

How the results depend on the processing

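No paired analysis was possible because replicate numbers could pair samples only between conditions, and 1 condition was used; the colours were compared within arrays by an array term. The 7 genes called by limma between the arrays became 1 without background subtraction and 1 with the well above background filter (0 of the 7). Without a filter on dim spots 11 were called (1 of the 7, all 11 lower on array 2). With every probe fitted the same 7 were called. The count was 0 with quantile normalization, with median centring, without probes with a shared run, without saturated probes and without probes marked as saturated. It was also 0 with only probes printed 10 times and without a colour term. The 374 called by limma between the colours became 147 with the well above background filter, 193 without saturated probes and 217 without probes marked as saturated. They were 268 without background subtraction and 454 with every probe fitted. They became 0 with quantile normalization, with median centring, without a filter on dim spots and without probes with a shared run. They were also 0 with only probes printed 10 times and without an array term. They were 0 to 9 without any 1 sample. In those fits the array term was dropped as well, and 1 colour held a single sample. Dropping that term alone gave 0, so the part of the sample left out cannot be told apart from it. Of the 20 genes with the largest SD, 6 stayed without a filter on dim spots and 10 after the mean colour difference was removed. Without any 1 sample, 3 to 16 of these 20 stayed. The cause was not tested. Signals near background limit what can be said of dim genes: 185 list members were detected by the mark and 141 at 2 times background.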

Other observations

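The array's 10 spike-in probes, each printed in 32 spots, gave log2 ratios of Cy5 over Cy3 from -1.93 to 2.07, and the ratio of a probe differed by at most 0.27 between the arrays.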
